A study of Mus musculus with 4 samples.

Results

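Kruppel-like factors are zinc finger transcription factors, and 10 of them were followed here in brown adipose tissue, which oxidises fat and sugar to generate warmth. The members are Klf2, Klf3, Klf4, Klf5, Klf6, Klf9, Klf10, Klf11, Klf13 and Klf15, which make 10 of the 22180 genes measured. They were picked by name with earlier results of these arrays known, so their differences between genotypes are given as a description and carry no test. Where a gene had several probe sets annotated to it alone, the brightest on average stood for it. Each of the 10 had 1 such probe set, so that choice decided nothing for them.

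The samples are brown fat from male C57BL/6 mice, 4 months old and on a chow diet, of which 2 lacked Tsku (Tsku knockout, KO) and 2 were wild type (WT). Tsku encodes tsukushi, a secreted small leucine-rich proteoglycan. The labels give the genotype but not how the allele was made or in which cells it was lost. They describe the samples of a genotype as biological replicates without saying whether different animals gave them. P-values therefore cover no more than the variation among these arrays, part or all of which may be technical. Each sample was hybridised to 1 whole-transcript array, read out as log2 expression values, and the number of arrays limits the precision.

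Tsku had 0 probe sets in the annotation used here, so the deletion could not be checked and the genotypes rest on the labels. Of 11 measured brown adipocyte markers, 10 lay above background on all 4 arrays, among them Ucp1 (9.99 and 10.001 in KO, 9.52 and 9.38 in WT). Background was taken on each array as the 95th percentile of 1405 odorant and pheromone receptor probe sets, and lay between 0.63 and 0.81. Array medians lay between 0.56 and 0.58. A value of one probe set cannot be set against that of another as an amount of RNA, so levels are compared only within a gene.

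The Kruppel-like family binds GC-rich and CACCC-type DNA through zinc fingers at the C-terminal end of the protein, and its members differ mostly in the regions outside these fingers, which recruit coactivators or corepressors. In cultured preadipocytes some members (Klf4, Klf5, Klf6, Klf9 and Klf15) are known to promote fat cell formation and others (Klf2 and Klf3) to hold it back. In blood vessels Klf2 and Klf4 are induced by laminar flow through the kinase ERK5 and MEF2 factors, while Klf9 and Klf15 are known targets of the glucocorticoid receptor and Klf10 and Klf11 are induced by TGF-beta.

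The bases upstream of 4 gene starts are shown because Klf2 and Klf4 had the largest differences between the genotypes, and Klf9 and Klf15, the glucocorticoid-responsive members, had small ones. Each run holds the 250 bases before the RefSeq start in GRCm38.p6, read 5′ to 3′ on the gene's strand. Klf2 lies on the plus strand (chr8:72318812-72319061), Klf4 on the minus strand (chr4:55532476-55532725), Klf9 on the plus strand (chr19:23140976-23141225) and Klf15 on the plus strand (chr6:90462326-90462575). Capitals mark exact matches, on either strand, to the following motifs. CTA and TAG with any 4 bases between them are called a MEF2 box here. GGGCGG is a GC box, of the kind that Sp and Kruppel-like factors bind. CACGTG is an E-box, of the kind that clock factors bind, and CCAAT is an NF-Y box. Adjacent or overlapping matches run together, as with the GC boxes near the distal end of Klf4.
Klf2: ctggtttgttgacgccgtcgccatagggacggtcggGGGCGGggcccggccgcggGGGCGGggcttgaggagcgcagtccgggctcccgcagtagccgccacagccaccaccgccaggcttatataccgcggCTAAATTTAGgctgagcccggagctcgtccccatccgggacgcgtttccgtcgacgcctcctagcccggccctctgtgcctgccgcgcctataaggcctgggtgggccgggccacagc
Klf4: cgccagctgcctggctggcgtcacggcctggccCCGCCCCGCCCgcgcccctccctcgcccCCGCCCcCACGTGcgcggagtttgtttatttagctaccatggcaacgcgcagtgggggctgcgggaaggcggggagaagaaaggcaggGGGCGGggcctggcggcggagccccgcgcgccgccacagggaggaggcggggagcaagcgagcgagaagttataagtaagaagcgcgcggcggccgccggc
Klf9: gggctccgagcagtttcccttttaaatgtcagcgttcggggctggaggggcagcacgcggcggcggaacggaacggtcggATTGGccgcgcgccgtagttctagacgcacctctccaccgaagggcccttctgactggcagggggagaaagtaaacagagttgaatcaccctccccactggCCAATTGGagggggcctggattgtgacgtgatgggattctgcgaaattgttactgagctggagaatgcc
Klf15: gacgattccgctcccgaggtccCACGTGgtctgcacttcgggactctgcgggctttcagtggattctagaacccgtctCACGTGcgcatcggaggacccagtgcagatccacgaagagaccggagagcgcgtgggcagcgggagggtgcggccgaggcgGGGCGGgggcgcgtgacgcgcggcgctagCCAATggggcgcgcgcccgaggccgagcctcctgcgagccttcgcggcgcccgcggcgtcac

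RefSeq promoters were matched for 8 of the 10 members, and Klf5 and Klf10 were not matched. The MEF2 box was found in 1 of the 8, Klf2, with its first base at -118 from the start, against 3.2% of all 32851 promoters of the same length. The Klf4 window holds none. GC boxes were present in 7 of 8 (32.7% of all promoters), with 6 in Klf3, 4 in Klf4, 4 in Klf11 and 2 in Klf2. The Klf9 window had none of these. E-boxes stood in 4 of 8 (6.02% of all promoters), and Klf15 held 2, at -228 and -172. NF-Y boxes were found in 5 of 8 (33.8% of all promoters), with 4 in Klf6 and 3 in Klf9, of which the pair at -69 and -66 overlaps. The windows held between 59.6% GC in Klf9 and 78.4% GC in Klf3, against a median of 52.4% over all promoters. A match describes letters in a window and says nothing of binding in this tissue.

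**Figure D1:**
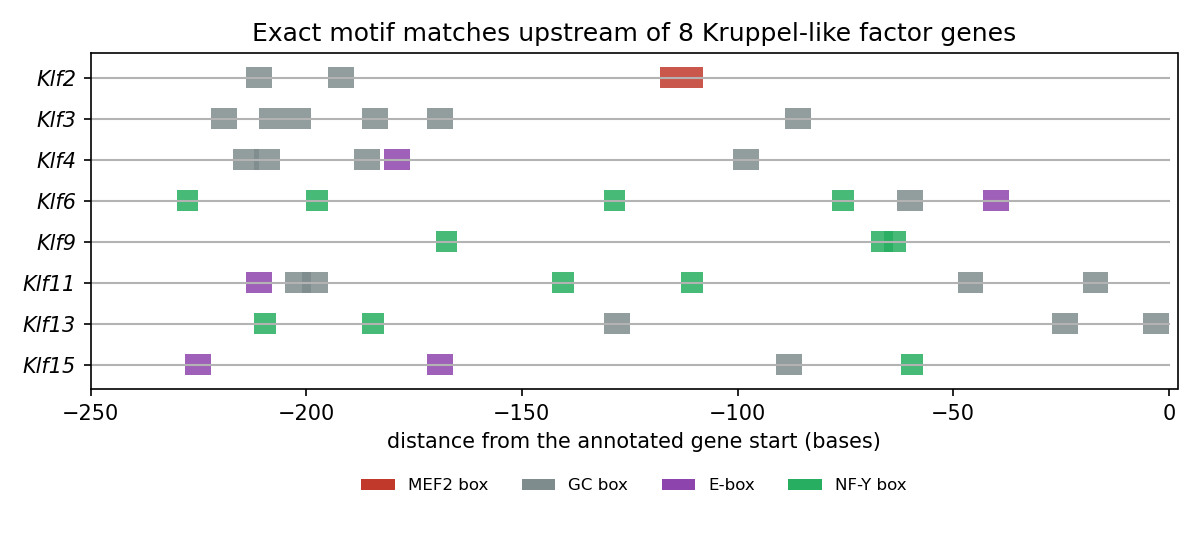
Exact motif matches in the 250 bases upstream of 8 Kruppel-like factor genes, with distance from the annotated start in bases on the x axis and 1 line per gene. The MEF2 box appears in Klf2 alone among the 8, GC boxes appear in 7 of them, and Klf15 is the gene with 2 E-boxes.

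Klf2 (probe set 17502440), the flow-induced factor of quiescent endothelium that also guides lymphocyte traffic, had the largest difference of the 10. It read 2.03 and 2.44 in KO, against 3.81 and 4.03 in WT. Both KO arrays lay below both WT arrays, and the distance between the genotypes was several times the gap within either. The means were 2.24 ± 0.29 in KO and 3.92 ± 0.16 in WT (SD, n = 2 each), a log2 difference of -1.68 (SE 0.22) or 3.21-fold lower in KO. In 27 of the 22180 genes the absolute difference was larger. With each array left out in turn the difference ran from -1.88 to -1.48.

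Klf4 (probe set 17425401), a close relative of Klf2 in endothelium that also acts in macrophages, smooth muscle and early fat cell formation, was the other member with a log2 difference past 1. It read 1.13 and 1.85 in KO, against 2.60 and 2.40 in WT. The groups did not overlap, but the KO arrays stood further apart than the WT arrays, and KO replicate 1 was the lowest. The means were 1.49 ± 0.51 in KO and 2.50 ± 0.14 in WT (SD, n = 2 each), a log2 difference of -1.01 (SE 0.28) or 2.01-fold lower in KO. Without KO replicate 1 the difference was -0.64, and without KO replicate 2 it was -1.37. An absolute log2 difference of at least 1 was seen in 0.834% of all genes.

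Among the members tied to fat cell formation, Klf5, an early activator of Pparg that is also known from smooth muscle, read 0.90 and 0.21 in KO, against 0.82 and 0.24 in WT. It was above background on 1 array of each genotype, and the groups overlapped almost completely. Klf6, an injury-responsive factor that promotes fat cell formation in culture, read 4.94 and 4.84 in KO, against 5.22 and 4.73 in WT. Both KO values lay between the WT values. Klf3, a repressor that works through the CtBP corepressors, read 4.86 and 4.25 in KO, against 4.73 and 4.51 in WT. Here the WT values lay between the KO values. The log2 differences of these genes were 0.026 (SE 0.31) for Klf5, -0.087 (SE 0.23) for Klf6 and -0.062 (SE 0.26) for Klf3, each smaller than the larger gap within a genotype, and each changed sign when certain single arrays were left out.

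The glucocorticoid-responsive members differed little. Klf9, which is also induced by thyroid hormone and follows the clock, read 6.92 and 7.15 in KO, against 7.12 and 7.10 in WT. The WT arrays were within 0.016 of each other and lay inside the KO range, for a log2 difference of -0.074 (SE 0.19). Klf15, an activator of amino acid breakdown and of the glucose transporter gene Slc2a4, read 3.57 and 3.63 in KO, against 3.75 and 3.77 in WT. Its groups did not overlap, and the log2 difference of -0.16 (SE 0.18) was larger than the gaps within the genotypes but about the size of its own standard error. That standard error borrows from the spread of all genes, which exceeds that of Klf15.

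The TGF-beta inducible members and Klf13 complete the set. Klf10, a growth-restraining factor, read 4.82 and 4.97 in KO, against 4.78 and 4.55 in WT. It was the single member with both KO arrays above both WT arrays, by a log2 difference of 0.23 (SE 0.19), which did not exceed the gap between the WT arrays (0.231). Klf11, which shares its Sin3-recruiting repression domain with Klf10, read 2.93 and 3.06 in KO, against 2.997 and 3.01 in WT, a log2 difference of -0.010 (SE 0.18). The range over all 4 arrays was 0.12, the narrowest of the 10. Klf13, first known as an activator of the chemokine gene Ccl5 in human T cells, read 1.70 and 2.20 in KO, against 2.12 and 2.01 in WT, a log2 difference of -0.11 (SE 0.23) with the WT values inside the KO range.

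**Figure D2:**
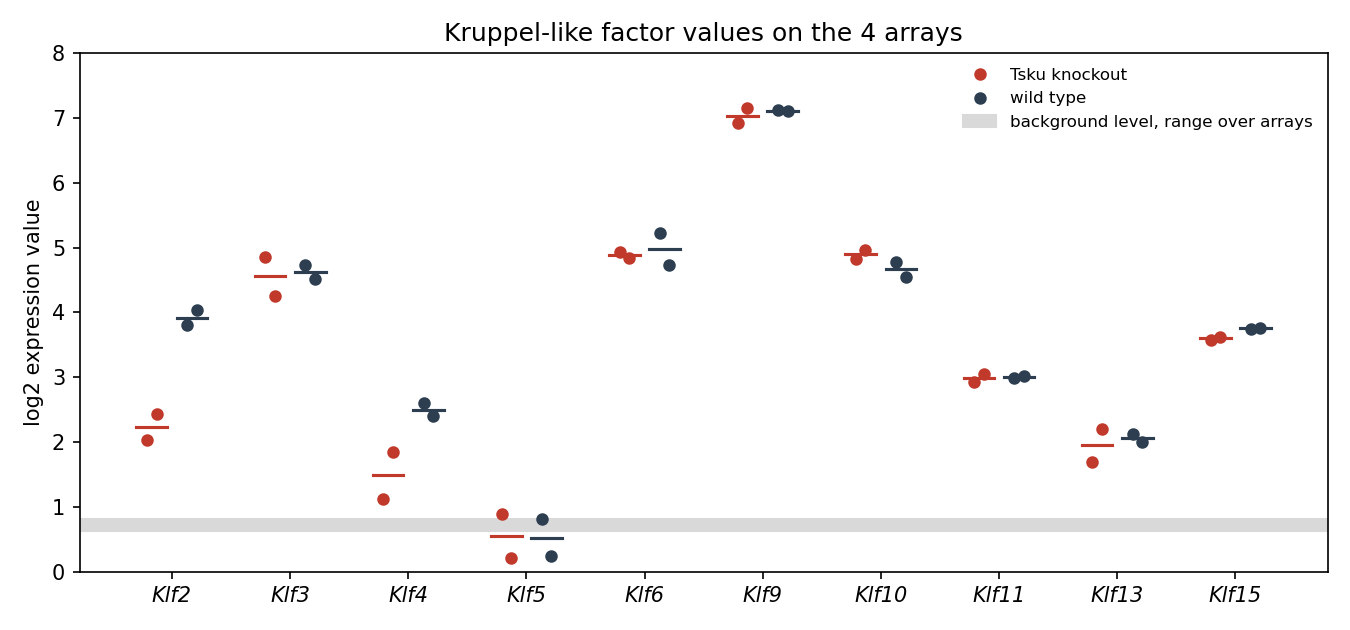
Log2 expression values of the 10 Kruppel-like factors, with Tsku knockout arrays on the left and wild-type arrays on the right of each gene, 1 point per array and a line at the mean of 2. The grey band is the range of the background level over the arrays. Klf2 and Klf4 have their knockout points well below the wild-type points, and Klf5 is the gene that falls to background.

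Counted together, 9 of the 10 were above background on all arrays, and 8 were lower and 2 higher in KO. Their median log2 difference was -0.081, beside 0.016 over all 22180 genes, so the set as a whole sat close to the bulk of genes while Klf2 and Klf4 stood apart from the other 8, which ran from -0.16 to 0.23. In limma with Benjamini-Hochberg adjustment, 0 of 10 had an adjusted p under 0.05, as did 0 of 22180 genes (0%). At an unadjusted p under 0.05 there were 2, Klf2 and Klf4, where the share over all genes was 5.56%. Both KO arrays lay below both WT arrays in 3 members, Klf2, Klf4 and Klf15 (15.8% of all genes), and above them in 1, Klf10 (19.4% of all genes). The absolute difference exceeded the gaps within both genotypes in Klf2, Klf4 and Klf15, as in 22.6% of all genes. Since the members were chosen with this contrast in view, nothing is read from these counts.

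**Figure D3:**
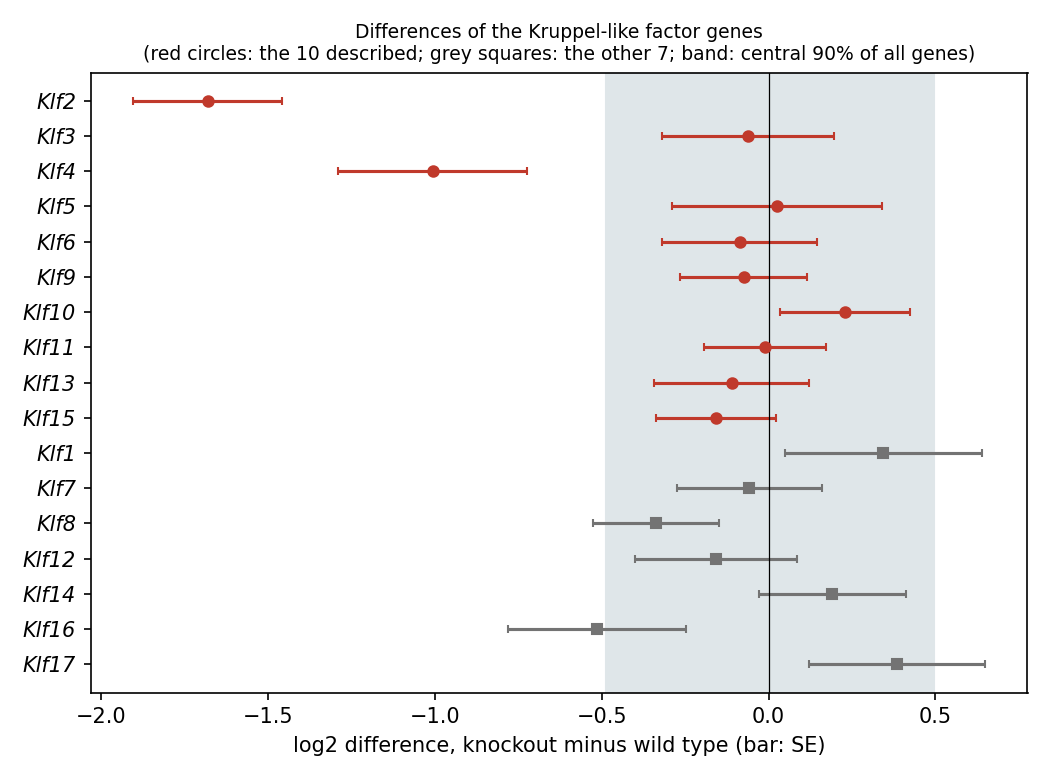
Log2 difference, knockout minus wild type, with its standard error for the 10 Kruppel-like factors described (red circles) and the other 7 measured (grey squares). The band holds the central 90% of all genes, from -0.49 to 0.50. Klf2 at -1.68, Klf4 at -1.01 and, just past its end, Klf16 at -0.51 lie outside it.

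**Figure D4:**
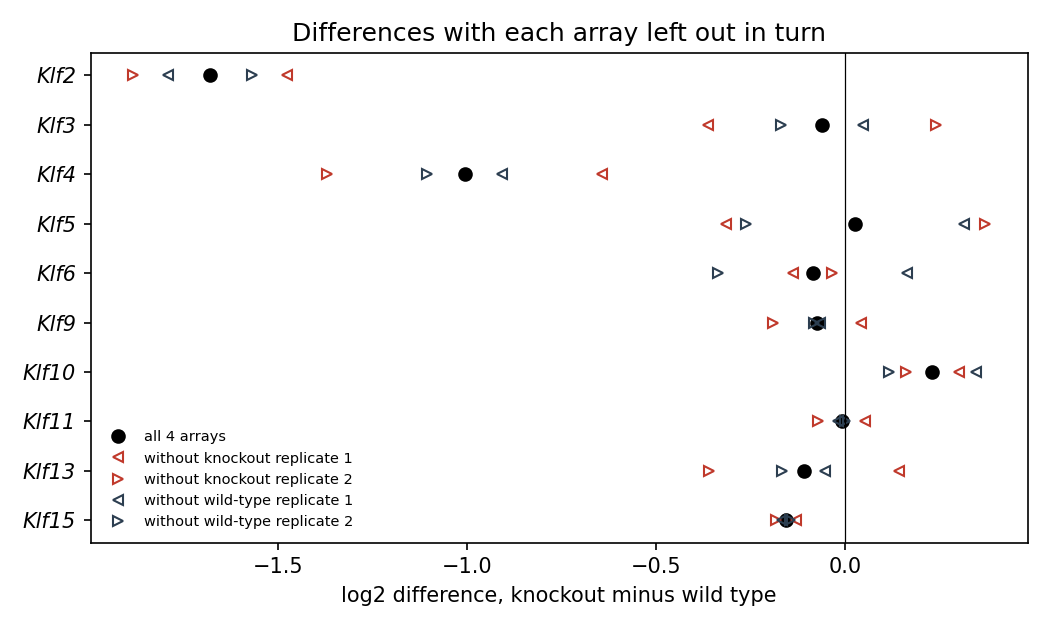
Log2 difference, knockout minus wild type, of each of the 10 genes with all 4 arrays (black) and with each array left out in turn (open triangles). Klf2 and Klf4 stay below 0 throughout, as does Klf15 near -0.16, Klf10 stays above 0, and the other 6 have values on both sides.

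The remaining Kruppel-like factors were measured in 7 genes, of which 3 (Klf7, Klf12 and Klf16) were above background on all arrays and Klf17 on 1. Of the 7, 3 were higher and 4 lower in KO, 0 passed in either direction and the smallest limma adjusted p was 0.879. That was Klf16, a repressor related to Klf9 and Klf13, which read 1.45 and 1.89 in KO, against 1.92 and 2.45 in WT. Its groups did not overlap, but its log2 difference of -0.51 (SE 0.27) was smaller than the gap between the WT arrays, and it was -0.25 without WT replicate 2. Klf7, which restrains fat cell formation in culture, read 2.12 and 2.30 in KO, against 2.46 and 2.07 in WT. Klf12, a CtBP-binding repressor, read 1.55 and 1.31 in KO, against 1.33 and 1.85 in WT. Klf17, known from germ cells and early embryos, read 1.05 and 0.38 in KO, against 0.35 and 0.31 in WT. Klf1, the erythroid factor, Klf8 and Klf14 were below background on every array.

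The Sp factors share the zinc fingers and the GC box with this family. Of 8 measured, 3 were above background on all arrays, 5 were higher and 3 lower, and 0 passed (smallest limma adjusted p = 0.872). Sp4 read 1.05 and 1.37 in KO, against 1.61 and 2.35 in WT, a log2 difference of -0.77 (SE 0.29) that was about as large as the gap between the WT arrays. The ubiquitous Sp1 and Sp3 differed by 0.11 (SE 0.23) and 0.072 (SE 0.22), and Sp6 was above background on WT replicate 1 alone. Of 13 cofactors and ubiquitin ligases that act on the family, 7 were higher and 6 lower with a median log2 difference of 0.045, and 0 passed (smallest adjusted p = 0.895). Among them Sap30 was below background on both WT arrays and on KO replicate 1, and the CtBP gene Ctbp1 differed by 0.25, the deacetylase gene Hdac1 by 0.31 and the ligase gene Fbxw7 by 0.23. Wwp1, a ligase known to act on Klf2 and Klf5, read 6.73 and 6.62 in KO, against 6.85 and 6.87 in WT.

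The genes around Klf2 and Klf4 in endothelium were split in direction. Of 16 genes of the ERK5-MEF2 pathway and of endothelial targets, 8 were higher and 8 lower, with a median log2 difference of -0.038, and 0 passed (smallest limma adjusted p = 0.872). Mapk7, which encodes ERK5, read 0.60 and 0.72 in KO, below background on KO replicate 1, against 1.15 and 0.81 in WT. Mef2c, one of the MEF2 genes, read 3.17 and 3.52 in KO, against 3.92 and 3.50 in WT. Thbd, the thrombomodulin gene that KLF2 activates in cultured human endothelium, read 2.84 and 3.57 in KO, against 2.69 and 2.12 in WT, a log2 difference of 0.80 (SE 0.32) that runs opposite to that of Klf2. Ptgds, another known target, was below background on WT replicate 2 and differed by 0.36 (SE 0.18). Nos3, the endothelial nitric oxide synthase gene, differed by -0.080 (SE 0.26).

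All 19 measured endothelial markers were above background on all arrays. Of these 11 were higher and 8 lower in KO, with a median log2 difference of 0.039, and 0 passed. That median was 0.26 without KO replicate 1 and -0.20 without KO replicate 2. Their summed log2 values were 79.45 and 89.46 in KO, against 84.91 and 83.01 in WT, so the KO arrays lay on both sides of the WT arrays. The smallest unadjusted p-values in this list belonged to Kdr (log2 difference 0.46), Sox18 (0.51), Flt1 (0.22) and Egfl7 (-0.32). In bulk tissue, fewer cells of a type and less RNA per cell cannot be told apart.

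Lists of macrophage and skeletal muscle genes had lower values in KO alongside Klf2 and Klf4, though no gene of either passed. Macrophage markers, of which 14 of 16 were above background on all arrays, had summed log2 values of 41.33 and 50.43 in KO, against 52.26 and 53.1 in WT. Of the 16, 14 were lower, with a median log2 difference of -0.45, and 0 passed. C1qc differed by -0.85, Cd68 by -0.88, Cd163 by -0.57 and Clec4n, below background on KO replicate 1, by -0.59. Like Klf2 and Klf4, the macrophage list was lowest on KO replicate 1, and without that array its median was -0.13. On KO replicate 2, against each gene's own mean, its median stood at 0.067, Klf2 at -0.64 and Klf4 at -0.14. Skeletal muscle markers, 13 of 18 above background on all arrays, had summed values of 54.08 and 33.89 in KO, against 64.95 and 73.6 in WT. All 18 were lower, with a median of -1.68, and 0 passed (smallest limma adjusted p = 0.736). Tnni2 differed by -2.25, Tnnc2 by -1.82, Acta1 by -1.90 and Pvalb by -2.25. Without KO replicate 2 the median was -0.89. The median of this list was lowest on KO replicate 2, the array on which Klf2 and Klf4 were the higher of the KO pair. Its genes did not all follow that order. Acta1 and Pvalb were lower on KO replicate 2. Tnni2 (1.24 and 1.34 in KO) and Tnnc2 (3.46 and 3.78 in KO) were lower on KO replicate 1, as Klf2 was. The part of muscle or macrophage RNA in the values of Klf2 and Klf4 was not tested.

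Several Kruppel-like genes are known to rise early after a stimulus, and the values of the immediate early genes are given beside them. Of 21 measured, 11 were higher and 10 lower with a median log2 difference of 0.075, and 0 passed (smallest limma adjusted p = 0.872). That median was 0.53 without KO replicate 1 and -0.39 without KO replicate 2. Against each gene's own mean, their median was -0.43 on KO replicate 1 and 0.44 on KO replicate 2, against 0.11 and 0.034 on the WT arrays. On those arrays Klf2 stood at -1.04 and -0.64 in KO, against 0.73 and 0.95 in WT. Klf4 stood at -0.87 and -0.14 in KO, against 0.60 and 0.40 in WT. The part of early gene induction in these values was not tested. Egr3 (log2 difference -1.17) and Csrnp1 (-0.64), both below background on KO replicate 1, were lower on both KO arrays than on either WT array. So was Maff, which was below background on both KO arrays, whereas Junb read 3.55 and 4.25 in KO, against 3.34 and 3.58 in WT.

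**Figure D5:**
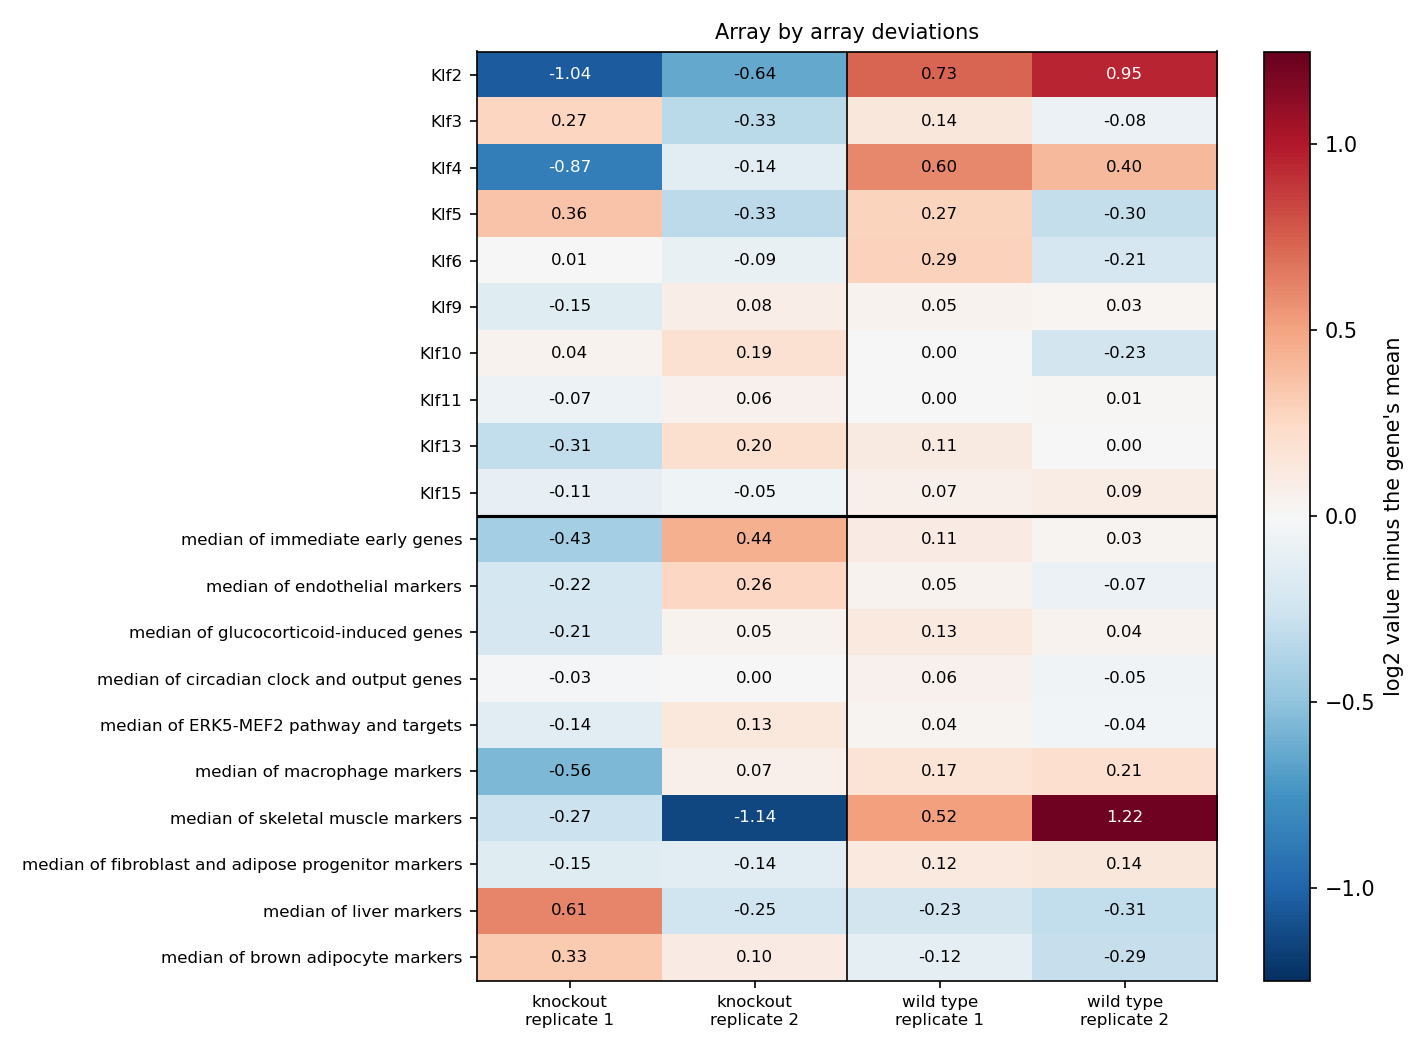
Deviation of each Kruppel-like factor from its own mean over the 4 arrays (log2, upper rows) and the median deviation of 10 gene lists (lower rows), with knockout arrays left of wild-type arrays. Klf2 is low on both knockout arrays, while immediate early genes stand at -0.43 on one and 0.44 on the other.

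The genes downstream of hormones and the clock were compared with Klf9 and Klf15. Of 17 genes listed as glucocorticoid-induced, 3 were higher and 14 lower with a median log2 difference of -0.17, and 0 passed (smallest limma adjusted p = 0.872). That median was -0.023 without KO replicate 1 and -0.30 without KO replicate 2. The log2 difference of Klf9 was 0.042 and -0.19 with the same arrays left out, whereas that of Klf15 stayed between -0.18 and -0.13. Map3k6 was higher by 0.99 (SE 0.21), while Per1 differed by -0.61, Lcn2 by -0.65 and Errfi1 by -0.70, with no overlap of the genotypes in any of these genes. Nr3c1, counted in this list though it encodes the receptor rather than a target, read 5.40 and 5.52 in KO, against 5.69 and 5.85 in WT. Fkbp4, a receptor chaperone gene that was also counted, differed by -0.28. Of 17 clock genes, 8 were higher and 9 lower, with a median of -4.0e-05, and 0 passed. Beside Per1, which stands in both lists, Ciart differed by -0.70, Bhlhe40 by 0.40 and Cry1, below background on KO replicate 1, by -0.77. Of 14 amino acid and lipid enzymes known as Klf15 targets, 10 were higher and 4 lower with a median of 0.21 (0.063 without KO replicate 1), and 0 passed. Gpt, an alanine aminotransferase gene, read 4.36 and 4.36 in KO, against 3.68 and 3.68 in WT. Got1 differed by -0.43 and Hpd by 0.40. Tat, above background on KO replicate 1 alone, read 1.48 and 0.63 in KO, against 0.58 and -0.35 in WT. Liver markers were higher on KO replicate 1 in the same samples (median log2 difference 0.54, 10 of 11 higher, 6 of 11 above background on all arrays), with summed log2 values of 29.51 and 21.47 in KO, against 20.31 and 18.32 in WT. Without KO replicate 1 their median turned to -0.057. Their part in the values of Tat and Hpd was not tested.

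The adipogenic factors and adipocyte genes that Kruppel-like proteins act on had higher values in KO. All 16 measured genes of this list had a positive log2 difference, with a median of 0.27, and 0 passed (smallest limma adjusted p = 0.872). That median was 0.20 without KO replicate 1. Prdm16, which sets brown fat identity, read 3.95 and 3.22 in KO, against 2.78 and 2.38 in WT. Srebf1, the lipogenic factor, read 5.36 and 5.201 in KO, against 4.50 and 4.77 in WT. Ucp1 differed by 0.55, and Cebpd was below background on all arrays. Pparg, the master factor of fat cells that Klf2 represses and Klf5 and Klf15 activate in culture, read 8.33 and 8.31 in KO, against 8.37 and 8.09 in WT. Its KO values lay inside the WT range. Of 14 measured TGF-beta response genes, 8 were higher and 6 lower with a median of 0.069, beside log2 differences of 0.23 for Klf10 and -0.010 for Klf11, and 0 passed. Pmepa1 differed by 1.09 (SE 0.25), the receptor gene Tgfbr1 by 0.62, and Tgfb2, below background on WT replicate 2, by 0.45. Smad7 was below background on both KO arrays and read 1.09 and 0.80 in WT.

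Among 13050 other named genes above background on at least 1 array, those whose 4 array values lay nearest to Klf2's, each taken from its own mean, were Ly86, Tnnc2, Eef1a2, Chil3 and Cish. Their root mean square distances from Klf2 were 0.18, 0.19, 0.19, 0.21 and 0.24 log2 units over 4 arrays. Ly86 read 3.14 and 3.78 in KO, against 4.71 and 4.93 in WT, and Tnnc2, a gene of fast skeletal muscle, read 3.46 and 3.78 in KO, against 5.09 and 5.79 in WT. Eef1a2 and Chil3 were below background on both KO arrays and Cish on KO replicate 1, so they entered through their WT values and their place near Klf2 rests partly on signal at background. For Klf9, which varied little, the nearest were Npm1, Anxa4, Fam118a, Mdh1 and Emd, at distances of 0.0080 to 0.012.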

How the data were processed

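Total RNA from brown fat of 2 Tsku knockout and 2 wild-type samples was labelled with biotin and hybridised to whole-transcript arrays, per the labels' protocols. The authors deposited log2 expression values for 41345 probe sets. RMA, oligo and limma appear in the submitters' processing notes without roles or versions. The base of the logarithm is taken from RMA, and the values sit lower than RMA usually gives, for a reason not given in the sources used here. A constant shift of log2 values would cancel in differences, but another scale, or a subtraction before the logarithm, would alter the folds printed, and this was not tested.

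Probe sets with 1 gene symbol (23521) gave 22180 genes. Those with several symbols (1814) or none listed (16010) were left out. The genotypes were compared by lmFit and eBayes of limma (version 3.58.1, run in R 4.3.3), two-sided, without a block or filter, adjusted by Benjamini-Hochberg over all genes. Residual degrees of freedom were 2 and prior degrees 3.96. The threshold was an adjusted p under 0.05. The fit was tested on simulated data.

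The members and the 20 gene lists were chosen with earlier results of these data known. Lists are described by counts and medians only. Genes named are the members, the other Kruppel-like factors, up to 4 genes per list with the smallest unadjusted p, and the 5 genes nearest in pattern to Klf2 and to Klf9. Outside that rule, Wwp1, Nos3, Nr3c1, Fkbp4, Pdgfrb, Mylk, Pparg and, as a tissue marker, Ucp1 were picked with their values known. So were the 4 promoters printed and the motifs. A planned comparison of protein sequences was not made, and the proteins are not analysed here. Alternatives covered a replicate block, single arrays left out, the mean or most variable probe set, a filter on dim genes, 3 other normalizations, a mean trend and robust variances.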

Additional observations from a re-analysis of the deposited data

How the results depend on the processing

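No Kruppel-like factor member passed an adjusted p of 0.05 under any of the 13 alternatives, and Klf2 and Klf4 were the 2 members at an unadjusted p under 0.05 in each of them. Leaving out an array leaves 1 sample in a genotype, which is then assumed to vary like the other genotype's pair, so the p-values and counts of these 4 fits say little about stability. The log2 difference ran from -1.88 to -1.48 for Klf2, -1.37 to -0.64 for Klf4, -0.18 to -0.13 for Klf15 and 0.11 to 0.35 for Klf10. The other 6 members changed sign in 1 or 2 alternatives, all of them with an array left out. The block, probe set choices, filter, mean trend and robust variances leave a member's difference unchanged by design, so they could not change its sign. The members' median of -0.081 was -0.17 without WT replicate 2, and ran from -0.17 to -0.036 over single arrays left out. The count of all genes past the threshold, 0 with every array, was 1 with the mean trend and ran from 0 to 15 with single arrays left out, being 15 without WT replicate 1 and 2 without WT replicate 2; the cause was not tested. With replicate number as a block it was 1. The labels share replicate numbers between genotypes. Across genes the deviations of KO and WT replicate 1 had a correlation of -0.073, so no strong shared shift was seen. A single correlation over all genes cannot tell whether equal numbers pair the samples. The block changed no member's call. The median of immediate early genes was 0.53 without KO replicate 1 and -0.39 without KO replicate 2. The filter on dim genes left Klf5 untested. In the main fit, even absolute log2 differences of at least 1, seen in 0.834% of all genes, did not pass. The lack of calls therefore does not show a lack of change, and Klf5 is also limited by its signal near background.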

Other observations

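Markers of other cell types that Kruppel-like factors are known from gave mixed values. Among 12 smooth muscle and pericyte markers, 4 were higher and 8 lower in KO, with a median log2 difference of -0.12 (-0.039 without KO replicate 1, -0.28 without KO replicate 2) and 0 past the threshold. The pericyte gene Cspg4 read 2.83 and 3.02 in KO, against 2.03 and 1.86 in WT. Notch3, a receptor of mural cells, read 2.41 and 2.66 in KO, against 1.74 and 1.43 in WT. In both genes the KO arrays lay above the WT arrays, as in 19.4% of all genes. The contractile genes Tagln and Des differed by -0.50 and -0.46. These were the genes of the list with the smallest unadjusted p in limma, and other markers did not all follow that split. The pericyte gene Pdgfrb differed by -0.41 and the contractile gene Mylk by 0.067. Fibroblast and progenitor markers were lower in 9 of 10 genes, with a median of -0.22 and 0 past the threshold. Cd55 read 2.65 and 2.47 in KO, against 3.52 and 3.56 in WT, and Thy1 read 2.06 and 2.01 in KO, against 2.84 and 2.62 in WT. Col1a1 differed by -0.33 and Pi16 by -0.45.

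Lymphocyte markers, where Klf2 and Klf13 also act, were near background, with 2 of 13 above it on all arrays and a median difference of 0.094. That median was -0.17 without KO replicate 2. Cd3g differed by -0.48 and Ccr7, below background on KO replicate 2, by -0.51, and Cd8a and Cd2 were each above background on 1 array. Schwann cell markers had a median of 0.0014 over 7 genes, and ran from -0.19 to 0.19 with single arrays left out. Ngfr was below background on both KO arrays. Of the brown adipocyte markers 10 of 11 were higher, with a median of 0.37 (0.16 without KO replicate 1, 0.54 without KO replicate 2) and 0 past the threshold, led by Dio2 (2.03) and Otop1 (1.09). This marker list shares genes with the adipogenic list, Ucp1 and Prdm16 among them, so their medians are not separate results. Among liver markers Alb (log2 difference 1.81) and Hp (0.61) had the smallest unadjusted p-values in limma, though other liver markers had larger differences than Hp.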
